A study of Mus musculus with 4 samples.

Results

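Dendritic cells with transcripts of the C-type lectin gene Cd209a were described among the non-T cells that came along in CD4+ T cell preparations from mouse tumours. A barcode was a member when it held at least 2 unique molecular identifiers (UMIs, each standing for 1 captured transcript) of Cd209a and at least 5 of the class II gene H2-Ab1. It also had to have no UMI of Xcr1 or Clec9a, fewer than 2 of Ccr7, fewer than 5 of C1qa, C1qb and C1qc together and at most 1 of Cd3d, Cd3e and Cd3g together. Of the 20137 barcodes that passed the quality limits (500 genes or more, mitochondrial UMIs of 10% or less), 57 were members, 43 of 11933 in the Tc1 library and 14 of 8204 in the Tc9 library.

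The hosts were WT B6 mice with the Thy1.2+ allele that carried a chimeric tumour and received an adjuvant and Thy1.1+ Pmel-1 T cells, which were Tc1 cells in 1 group and Tc9 cells in the other (CD8 T cells of the interferon-gamma and the interleukin-9 type). Both groups thus shared the tumour, the host genotype, the Pmel-1 donor cells and the adjuvant, and they differed in the kind of cell transferred. Tumours of 3 mice per group were pooled on day 30 after inoculation, enriched for CD4+ T cells on a Percoll gradient, sorted by flow cytometry and captured with 5′ 10x chemistry. Each group gave 1 RNA library and a matching one for the T cell receptor (TCR). With 1 library a group no test between groups was possible, and all intervals are exact 95% intervals that cover counting error only and treat UMIs of a cell as independent, which makes them too narrow.

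Conventional dendritic cells take up antigen and present it to T cells. The type 1 lineage, marked by Xcr1 and Clec9a and dependent on the transcription factors Irf8 and Batf3, is known for cross-presentation to CD8 T cells, and the type 2 lineage, marked by Sirpa, Itgam (CD11b), Clec10a and Mgl2 and linked to Irf4 and Klf4, is known for presentation to CD4 T cells. Cd209a encodes a mouse relative of DC-SIGN and is found on type 2 dendritic cells and on some cells derived from monocytes, so the monocyte genes Lyz2, Ly6c2 and Fcgr1 were read alongside the dendritic ones.

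Members were deep cells. The 43 members of Tc1 held 464672 UMIs, with a median of 9975 per cell (2033 to 21402), against 5404 over all kept Tc1 barcodes, and the 14 of Tc9 held 118113, with a median of 8596 (1575 to 21637), against 5256.5. The genes of the rule describe the choice and are no finding. Cd209a ran from 2 through a median of 8 to 54 UMIs per member in Tc1 and from 2 through 6 to 19 in Tc9, and H2-Ab1 from 5 through 78 to 394 and from 15 through 32 to 108. At the edge of the rule, 4 Tc1 and 3 Tc9 members had exactly 2 Cd209a UMIs, while 17 and 5 barcodes missed membership only because they had 1. The complement sum was 0 in 32 of the 43 Tc1 members and in all 14 of Tc9.

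Of the limits besides Cd209a itself, the one on Cd3 alone removed the most barcodes in both libraries. In Tc1, 36 barcodes failed on Cd3 alone, with a median Cd3 sum of 14.5 UMIs and a median total of 19484.5 UMIs, and 15 of them (41.7%) had a productive TCR contig. In Tc9, 14 barcodes failed on it alone, with a median Cd3 sum of 8.5, a median total of 13789 UMIs and a TCR contig in 5 (35.7%). Among the members themselves, 1 of 43 had a TCR contig in Tc1 (2.33%, 0.0589 to 12.3%) and 0 of 14 in Tc9 (0 to 23.2%), while 68.7% and 57.2% of the T cells (Cd3 sum of at least 3) had one. The sum of 9 T cell markers stood at 36.6 CPM (UMIs of a gene per 1000000 UMIs of the population) in Tc1 members and 67.7 in Tc9 members, against 2126 and 3153 in the T cells of those libraries. The 6 melanoma markers came to 71.0 CPM in Tc1 members, 795 in the Tc1 T cells and 0 in Tc9 members.

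Members made up 0.360% (0.261 to 0.485%) of the kept barcodes in Tc1 and 0.171% (0.0933 to 0.286%) in Tc9. The pools had been sorted for CD4+ T cells, and macrophages (complement sum of at least 5) made up 18.5% of kept barcodes in Tc1 (2204 cells) and 0.414% in Tc9 (34 cells). Over barcodes with a Cd3 sum of at most 1 the order turned, to 0.822% of 5231 in Tc1 (0.596 to 1.11%) and 1.99% of 703 in Tc9 (1.09 to 3.32%). Set against the other dendritic cells, members were 43 of 106 in Tc1 (40.6%, 31.1 to 50.5%) and 14 of 26 in Tc9 (53.8%, 33.4 to 73.4%), with 23 and 3 Xcr1 or Clec9a cells and 40 and 9 Ccr7 cells as the rest. The intervals of that share overlapped. How many such cells the tumours held cannot be told apart from how many passed the sort.

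The label was checked against its markers. Flt3, the receptor for the growth factor that dendritic cells depend on, was found in 9 of 43 Tc1 members and 5 of 14 Tc9 members, at 23.7 and 84.7 CPM. In the Xcr1 or Clec9a cells of Tc1 it stood at 263 CPM, 11.1-fold above the Tc1 members (log2 ratio -3.47, -4.53 to -2.56), and in the macrophages at 2.01 CPM. Once each cell was thinned to 2000 UMIs, Flt3 remained in 2 of 43 Tc1 members (4.65%), in 7 of 22 Xcr1 or Clec9a cells (31.8%) and in 0.357% of the T cells, so this defining receptor was sparse in the Tc1 members. Zbtb46, the transcription factor that marks conventional dendritic cells, was found in 13 of 43 and 7 of 14 members, at 66.7 and 84.7 CPM, against 0.780 CPM in Tc1 macrophages. Kmo, an enzyme of tryptophan metabolism enriched in dendritic cells, stood at 88.2 and 195 CPM, and Dpp4, the peptidase CD26, at 101 and 93.1.

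Summed over the 11 dendritic identity genes, Tc1 members reached 809 CPM and Tc9 members 1363, against 83.2 in Tc1 macrophages, 143 in Tc9 macrophages, 152 and 101 in the T cells and 1919 in the Xcr1 or Clec9a cells of Tc1. The 20 type 2 genes came to 6155 CPM in Tc1 members and 6113 in Tc9 members, against 736 in the Xcr1 or Clec9a cells. Per cell, that sum ran from 2689 through 6039 to 15605 CPM in Tc1 and from 1905 through 6271 to 16682 in Tc9, and all 57 members had at least 1 UMI of the list. Both sums thus stood above the macrophages and T cells of the same library.

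**Figure D1:**
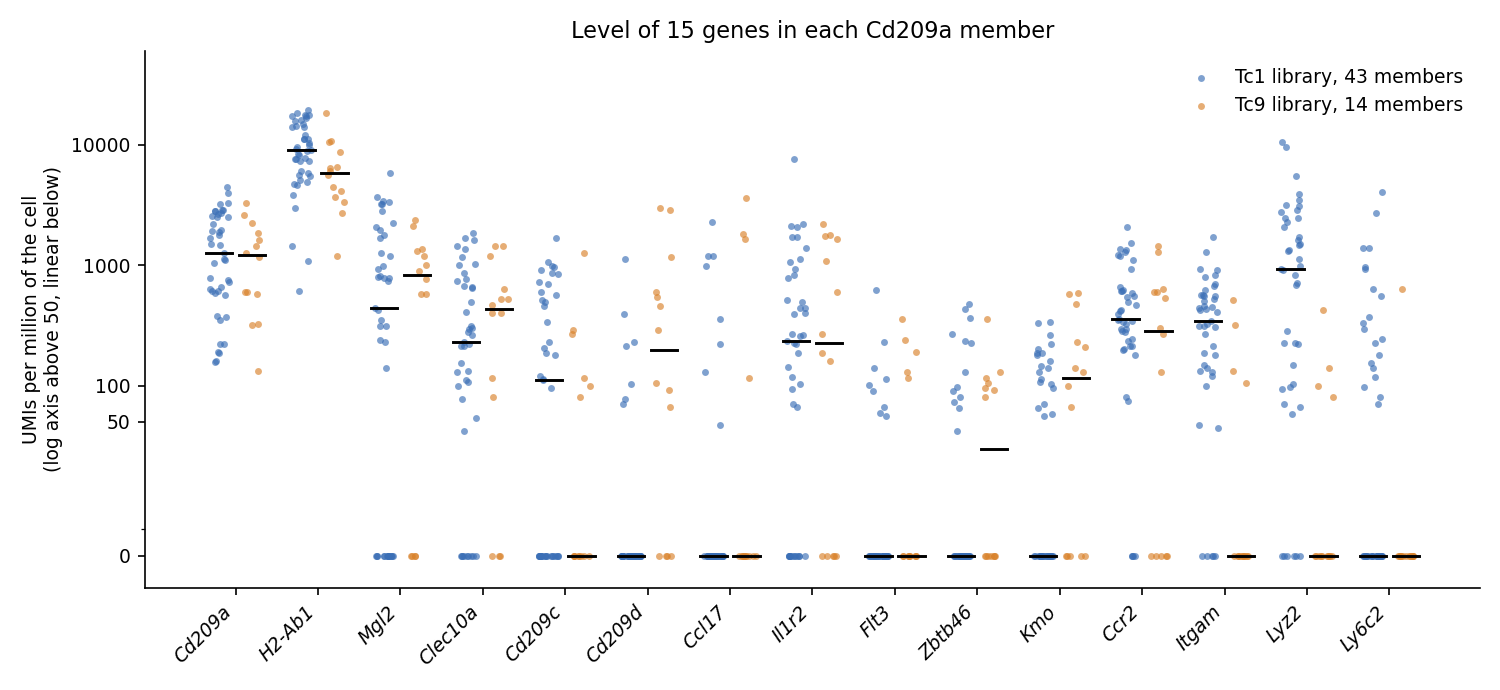
CPM in each of the 57 members for 15 genes, on a symmetric log axis that starts at 0. Points are cells (blue, 43 of Tc1; orange, 14 of Tc9) and black bars are medians; Mgl2 and Clec10a are well above 0 in most cells of both libraries, while Flt3 is at 0 in 34 Tc1 cells and Lyz2 is spread widely in Tc1 and at 0 in 10 of the Tc9 cells.

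Type 2 markers that the rule did not use came next. Mgl2, the macrophage galactose lectin CD301b (chr11:70130125-70137542, GRCm38), was found in 29 of 43 Tc1 members and 10 of 14 Tc9 members. Its count per member ran from 0 through a median of 4 to 57 UMIs in Tc1 and from 0 through 6.5 to 46 in Tc9, and the 2 libraries overlapped over nearly the whole range. Summed, it stood at 1091 CPM in Tc1 members and 999 in Tc9 members, against 42.1 in the Xcr1 or Clec9a cells, 40.6 in Tc1 macrophages, 311 in Tc9 macrophages and 15.5 and 3.42 in the T cells. At 2000 UMIs it was found in 26 of 43 (60.5%) and 10 of 12 (83.3%) members, against 0.973% and 0.253% of T cells, far above that background.

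Clec10a, its neighbour on the chromosome (chr11:70166623-70170836), stood at 439 CPM (34 of 43 cells) and 525 CPM (11 of 14 cells). The Xcr1 or Clec9a cells held 2 UMIs of it (6.48 CPM) and the Tc1 macrophages 52.6 CPM, but the Tc9 macrophages had 648 CPM, above the Tc9 members. Mgl2 and Clec10a are close paralogs that reads may not always separate. They were found together in 23 of the 43 Tc1 members and in 8 of the 14 of Tc9.

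Sirpa, the inhibitory receptor that binds CD47, was found in 38 of 43 and 12 of 14 members, at 241 and 330 CPM. The Xcr1 or Clec9a cells held 2 UMIs of it (log2 ratio 5.22, 3.33 to 8.28) and the macrophages 353 and 415 CPM, so it separated the members from the former and not from the latter. Itgam followed the same pattern in Tc1, at 357 CPM in 38 of 43 members against 1 UMI in the Xcr1 or Clec9a cells, but 4 of 14 Tc9 members had it. Irf4 stood at 77.5 CPM (18 cells) and 152 CPM (8 cells), against 4 UMIs in the Xcr1 or Clec9a cells, 6.43 CPM in Tc1 macrophages and 90.7 in Tc9 macrophages. Klf4 stood at 211 CPM (31 cells) and 559 CPM (13 of 14 cells).

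Members were next compared with the Xcr1 or Clec9a cells of the Tc1 library (23 cells), which share dissociation, sort and sequencing with them; the 3 such cells of Tc9 were too few. A gene was counted as higher or lower when its CPM differed at least 2-fold, with at least 50 CPM in 1 of the populations and at least 10 UMIs in all. The genes of the rule were left out. By this rule 13 of the 16 measured type 2 genes were higher in members, against 14.3% of the 3518 genes tested, with a median log2 ratio of 4.25 beside 0.03 over all genes, and 1 (Plet1) was lower. The cells were chosen by markers of these 2 lineages, so the contrast describes them and is no test.

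The largest ratios were those of Itgam (log2 6.78, 4.29 to 12.10), the lectin Cd209c (6.40, 3.89 to 11.71), AA467197 (6.11, 3.60 to 11.43, in 12 of 43 members) and Clec10a (6.08, 4.21 to 9.14). Ccl17, the ligand of the chemokine receptor CCR4, followed at 5.95 (3.43 to 11.27, 93 UMIs against 1), and Ccl9 at 5.90 (4.03 to 8.96). Mgl2 stood 4.69 above (3.91 to 5.61), Il1r2, the decoy receptor for interleukin-1, 4.35 (3.35 to 5.58), and S100a4, a calcium-binding protein of motile cells, 4.67. Cd7 (172 CPM), the signalling inhibitor Tnip3 (215 CPM) and the cytokine oncostatin M (Osm, 267 CPM) had no UMI in the Xcr1 or Clec9a cells, which makes them at least 17.7-fold, 22.1-fold and 27.4-fold higher by a floor of 3 counts in the pooled cells. Of the 11 measured C-type lectin genes, 9 were higher and 2 lower, and of the 11 chemokine genes 8 were higher and 1 was lower.

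Genes of the type 1 lineage were lower throughout. All 13 measured of the 16 listed type 1 genes were at least 2-fold lower in members, against 12.5% of genes tested, with a median log2 ratio of -3.41. Cadm1, an adhesion molecule of type 1 cells, had 1 UMI in members and 169 in the 23 Xcr1 or Clec9a cells (log2 -7.99, -13.30 to -5.49). Irf8 stood at 47.3 CPM against 1893 (-5.32, -6.01 to -4.71), the endosomal receptor Tlr3 at a log2 ratio of -5.55, and Wdfy4, which is needed for cross-presentation, at 118 CPM against 1261. Itgae (CD103) was at 0 in Tc1 members, at least 42.7-fold lower. Ly6d, a gene of the plasmacytoid and not the type 1 list, was also at 0, at least 43.2-fold lower. In the Xcr1 or Clec9a cells the 8 plasmacytoid genes had a median of 214 CPM per cell and 19466 in the highest cell. Batf3 (81.8 against 172 CPM), Naaa (312 CPM, log2 ratio -1.99) and Id2 (267 against 814 CPM) were lower but still present in members.

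Antigen presentation through class II did not separate these 2 kinds of dendritic cell. Of 14 measured class II genes besides the one of the rule, 2 were higher and 3 lower, with a median of 0.09. H2-Aa stood at 10517 CPM in members and 12019 in the Xcr1 or Clec9a cells, and the invariant chain Cd74 at 26442 and 28415. Class I genes were lower in 6 of 16 and higher in none, with a median of -0.82. The 7 measured genes of the G2 and M phases were all lower in members (median -2.44), against 12.5% of genes tested. Of the 17 listed, however, only 1 was measured against Tc1 macrophages. Most of the 7 thus passed the CPM minimum only through the Xcr1 or Clec9a cells, so their direction was largely fixed. Per cell, the list had a median of 147 CPM in Tc1 members and 219 in the Xcr1 or Clec9a cells. Mki67 was found in 2 of 43 Tc1 and 3 of 14 Tc9 members.

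Monocyte genes were higher in members than in the Xcr1 or Clec9a cells, 10 of 11 measured with a median of 2.69, and so were 7 of 8 macrophage genes (median 2.44). Lyz2, which encodes lysozyme, stood at 1496 against 298 CPM, Ly6c2 at 452 against 113 and Csf1r, the receptor of macrophage growth factor, at 151 against 9.72 (3 UMIs, log2 ratio 3.95, 2.35 to 6.27). The T cells of the same library, however, carried 1528 CPM of Lyz2, 778 of Ly6c2 and 118 of Fcgr1 (members 118). These summed levels in members thus did not exceed those in T cells. Per cell, the monocyte list had a median of 4683 CPM in Tc1 members and 1752 in Tc1 T cells. The T cell gate set no limit on complement genes. In those T cells the macrophage list had a median of 987 CPM and reached 89980 in the highest cell. With a looser gate for the type 1 cells the ratios of Ly6c2, Lyz2 and Cebpb turned, to -0.74, -0.047 and -0.065.

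Against the 2204 macrophages of Tc1, the dendritic identity genes stood out: 8 of the 8 measured were higher in members, where 10.7% of 3367 genes were higher. Their median log2 ratio was 3.86, beside 0.09 over all genes. Zbtb46 was 85.5-fold higher (log2 6.42, 5.42 to 7.51), Ffar2, a receptor for short-chain fatty acids, stood 6.22 higher, and Bcl11a, a transcription factor of dendritic progenitors, 3.71 higher. Kmo, Dpp4 and Itgax (CD11c) stood 4.01, 4.21 and 2.76 higher. In Tc9 all 8 measured identity genes were higher, against 19.9% of 3378 genes, with a median of 1.84. The 34 Tc9 macrophages held 11 UMIs of 4 identity genes, and the others entered at the floor of 3 counts. Most of these genes, too, passed the minimum only through the members, so this is no independent repeat.

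Type 2 genes were higher than in Tc1 macrophages for 10 of 15 (median 3.06) and lower for none. Ccl17 stood 513-fold above (7.83 to 10.49 on the log2 scale), but came from 8 of 43 cells with 46.2% of its UMIs in 1 of them. Mgl2 stood 26.9-fold above (4.75, 4.58 to 4.92), and Cd7, from 9 of 43 cells, 5.10 on the log2 scale. In Tc9, 8 of 15 were higher, with a smaller median of 1.12. The Tc9 macrophages themselves carried Mgl2, Clec10a and Klf4 (441 CPM) at levels several-fold above those of the Tc1 macrophages. They were 34 cells with 77184 UMIs, a median of 1910.5 per cell, so their values rest on few UMIs. The 9 T cell markers came to 570 CPM in them, against 51.9 in the Tc1 macrophages.

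Class II genes were higher in members than in macrophages in both libraries, 10 of 14 in Tc1 (median 1.71) and 8 of 12 in Tc9 (median 1.74). Cd74 stood 1.63 higher in Tc1 (26442 against 8572 CPM) and 2.54 higher in Tc9 (11286 against 1943), and H2-Aa 1.68 and 1.77 higher. H2-DMb2, a chain of the peptide editor for class II, stood 5.06 higher in Tc1. H2-Ab1 was used to choose the members and is linked to these genes, so their direction was partly fixed.

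Macrophage genes were lower in 15 of 18 in Tc1, against 10.3% of genes tested, and in 14 of 16 in Tc9, against 21.1%, with medians of -3.88 and -4.17 and none higher. The complement genes chose the macrophages and were limited in the members. The direction of genes linked to them was thus partly fixed, and the contrast is no test. Apoe, the apolipoprotein of lipid-laden macrophages, stood at 38.7 CPM in Tc1 members against 5097 in macrophages (log2 -7.04, -7.79 to -6.38) and at 33.9 against 6893 in Tc9 (-7.67). Trem2, a lipid receptor, had a log2 ratio of -5.67 in Tc1, and the chemokines Ccl12, Pf4, Ccl8 and Ccl24 had ratios of -6.17, -6.00, -5.90 and -5.60. Of 18 measured chemokine genes 14 were lower in Tc1 members and 1 (Ccl17) was higher. Of the measured monocyte genes 8 of 15 were lower in Tc1 and 1 was higher, while in Tc9 5 of 12 were lower and 5 higher.

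**Figure D2:**
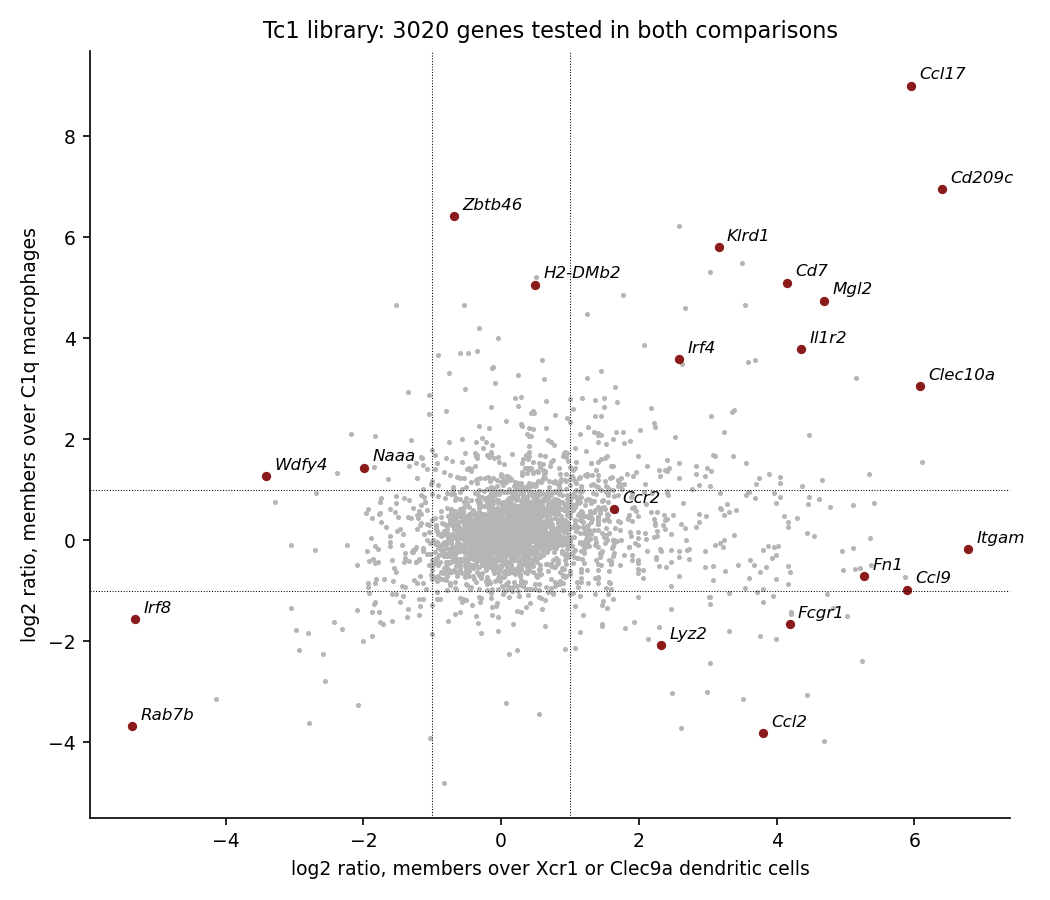
Log2 ratio of members over Xcr1 or Clec9a cells (x axis) against that over macrophages (y axis) for 3020 genes of the Tc1 library. Each point is a gene and dotted lines mark 2-fold; 138 genes lie above both lines, with Ccl17, Cd209c and Mgl2 farthest out, and the type 1 genes lie to the left.

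Of 3020 genes measured in both Tc1 comparisons, 138 (4.57%) were higher in members than in either other population and 37 (1.23%) were lower than in both. Both ratios share the members, so the overlap is given as a count only. Cd209c led these genes, at 273 CPM in 23 of 43 cells, and Mgl2, Cd7, Il1r2, Ear2, Ifitm1, Clec10a, Klrd1 and Irf4 were among them. Il1r2 stood at 529 CPM in 31 of 43 members and at 440 CPM in 9 of 14 Tc9 members. It was at 25.9 CPM in the Xcr1 or Clec9a cells, 38.5 in Tc1 macrophages and 1 UMI in Tc9 macrophages. Klrd1 (CD94), a natural killer receptor chain, stood at 318.5 CPM in Tc1 members and 128 in the Tc1 T cells.

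The Cd209 genes form a cluster on chromosome 8 (GRCm38), with Cd209a at chr8:3743395-3748984, Cd209e at chr8:3847973-3854286, Cd209d at chr8:3871824-3878548 and Cd209c at chr8:3940081-3954746. They are paralogs of similar sequence, so reads may be split among them. Cd209c was found in 23 of 43 Tc1 members (273 CPM) and 6 of 14 Tc9 members (76.2 CPM), a ratio of -1.84. Cd209d ran the other way, with 23 UMIs in 7 Tc1 members (49.5 CPM) and 76 UMIs in 10 of 14 Tc9 members (643 CPM), a log2 ratio of 3.70 (3.01 to 4.44). Cd209e had 7 UMIs in 2 Tc1 members and 53 UMIs in 4 Tc9 members, 15.1 against 449 CPM (4.90, 3.75 to 6.28). At 2000 UMIs, Cd209d was found in 3 of 43 and 5 of 12 members and in 0.0649% and 0.0702% of T cells. The 4 Tc9 members with Cd209e all had Cd209d as well.

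Members of Tc9 were then set against those of Tc1, the comparison of the 2 transfers. Members of Tc9 had lower CPM of class II and interferon-induced genes and higher CPM of Cd209d, Cd209e, Bcl11a, Tcf4 and Klf4, while most type 2 markers lay within 2-fold. The same 2 of the 14 Tc9 cells held 72.4% of the Tc9 members' Cd209d UMIs, 84.9% of Cd209e and 60.9% of Tcf4, and the median Tc9 member had 1, 0 and 1 UMIs of these genes. Klf4 was spread more widely, with a median of 4 UMIs in Tc9 against 2 in Tc1. By the same rule 17.5% of 3766 genes were higher in Tc9 and 13.6% lower, so 56.2% of the called genes were higher. The median over all genes was 0.15. The share of called genes that were higher was 42.1% with TMM scaling and 46.7% with the median ratio. Without each gene's top cell it was 28.4%, and leaving out 1 cell takes away more of 14 members than of 43. The 2 groups had 14 and 43 cells from 1 library each, so differences between libraries cannot be told apart from differences between transfers.

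Of 15 measured type 2 genes, 1 was higher in Tc9, 2 were lower and 12 lay within 2-fold (median -0.10). Mgl2 had a ratio of -0.13 and S100a4 of -0.10. Of 9 identity genes 4 were higher in Tc9 and none lower (median 0.55). Bcl11a stood at 322 against 55.9 CPM (log2 2.52, in 8 of 14 and 10 of 43 cells), Flt3 was 1.84 higher on 10 and 11 UMIs, and Kmo 1.14 higher. Tcf4, the transcription factor of plasmacytoid cells that some type 2 cells share, stood at 542 CPM in 12 of 14 Tc9 members and 66.7 CPM in 14 of 43 Tc1 members (3.02), and in macrophages at 428 and 113. The 8 plasmacytoid genes came to 855 CPM in Tc9 members and 437 in Tc1 members, and to 829 and 862 in the macrophages of Tc9 and Tc1. Tcf4 gave 64 of the list's 101 UMIs in Tc9 members. Of the 8 genes, Siglech, Ccr9 and Cox6a2 had UMIs in Tc9 members and none in Tc1 members. Of the 3 measured, 2 were higher in Tc9 and 1 lower, in members and in macrophages alike. Klf4 was 1.41 higher and Mrc1, the mannose receptor, 1.42 higher (923 against 344 CPM); in macrophages Mrc1 stood at 2475 and 513.

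Several of the largest ratios in Tc9 came from few UMIs or few cells. Cacnb2, a calcium channel subunit, had 75 UMIs in 9 of 14 Tc9 members and 4 in 3 Tc1 members (635 against 8.61 CPM, log2 interval 4.79 to 8.12), and 1.02 and 1.59 CPM in the T cells; 65.3% of its Tc9 UMIs came from 2 cells. Atf5 (log2 5.88, 3.18 to 11.28), Gria3 (5.68, 2.94 to 11.09) and Igfbp4 (4.09, 2.23 to 6.54) had 15, 13 and 13 UMIs in 5, 3 and 3 Tc9 members and 1, 1 and 3 UMIs in Tc1 members. Cdh1 (E-cadherin) stood at 381 against 75.3 CPM, a log2 ratio of 2.34. Pdcd1lg2, the PD-1 ligand PD-L2, was found in 6 of 14 Tc9 members and 5 of 43 Tc1 members (3.20), while Cd274, Cd80 and Cd40 were found in 2, 2 and 3 Tc9 members and in 15, 17 and 14 Tc1 members.

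**Figure D3:**
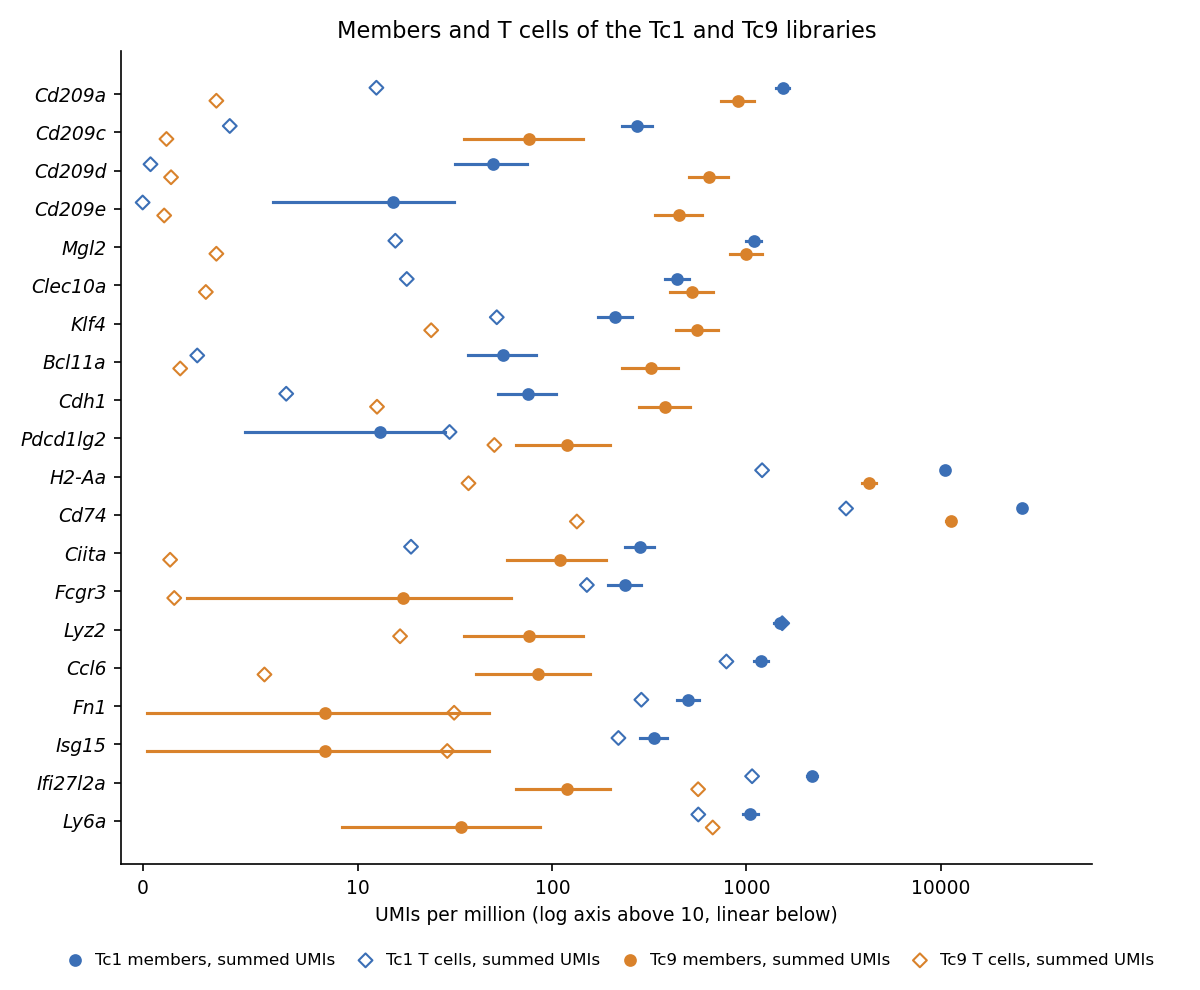
Summed CPM of 20 genes in Tc1 members (43 cells) and Tc9 members (14 cells), on a log axis with exact 95% Poisson intervals; diamonds are T cells of the same library. Lyz2, Ifi27l2a, Isg15 and Fn1 are lower in Tc9 members, Cd209d and Cd209e higher, and for Lyz2 the Tc1 diamond lies at the level of the Tc1 members.

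Class II genes were lower in Tc9 members for 7 of 14, with a median of -0.99 and none higher. H2-Aa stood at 4284 against 10517 CPM (-1.30), Cd74 at 11286 against 26442 (-1.23), H2-Eb1 at 2972 against 8524 (-1.52) and Ciita, the master activator of class II, at 110 against 282 (-1.36). In T cells all 9 measured were lower in Tc9 (12.2% of 3581 genes were lower there and 8.35% higher), with a median of -4.61 and Cd74 at 134 against 3260 CPM. In macrophages 4 of 10 were lower and 2 higher, where 14.6% of 4273 genes were lower and 34.2% higher. Expected free RNA was 1.52% of UMIs in Tc1 members and 2.06% in Tc9 members, and after its subtraction the members' class II median was -0.91. The estimate used T cell, melanoma, red cell and platelet markers and the profile of all barcodes, not of empty droplets. The Cd3 limit of the rule selects against T cell markers, so the estimate may be too low. It was 19.9% in Tc1 macrophages. Values after subtraction, here and below, thus cannot show how much of a difference was free RNA. Of 15 class I genes 6 were lower and none higher (median -0.88).

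Type I interferon response genes were lower in 10 of 13 and higher in none (median -1.99). Isg15, a ubiquitin-like interferon product, had 155 UMIs in 21 of 43 Tc1 members and 1 UMI in 1 of 14 Tc9 members (-5.30, -10.61 to -2.80). Ifi27l2a ran from 0 through 18 to 129 UMIs per Tc1 member and was at 0 in 10 of 14 Tc9 members (2180 against 119 CPM, -4.20). Macrophages had Isg15 at 492 CPM in Tc1 and 1 UMI in Tc9, and T cells at 219 and 28.7. In those populations 13 of 17 (median -1.51) and 8 of 11 (median -1.44) of the list's measured genes were lower in Tc9, so members, macrophages and T cells had the list lower in the same library. After subtraction of expected free RNA the members' median was -1.76. Of 8 measured interferon-gamma response genes, 7 were lower in Tc9 members and none higher (median -1.65), while 1 of 9 was lower in T cells and 4 of 10 lower with 2 higher in macrophages.

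Of the measured monocyte genes 4 of 11 were lower and none higher (median -0.84). Lyz2 was found in 37 of 43 Tc1 members, from 0 through 7 to 136 UMIs, and in 4 of 14 Tc9 members, from 0 through 0 to 4, or 1496 against 76.2 CPM (-4.29). T cells went from 1528 CPM in Tc1 to 16.4 in Tc9 and macrophages from 6304 to 4379, with log2 ratios of -6.54 in T cells and -0.53 in macrophages. After subtraction of expected free RNA the members' ratio was -4.18. Fn1 (fibronectin) had 232 UMIs in 17 Tc1 members and 1 UMI in Tc9 (-5.88, -11.19 to -3.39), and Ly6c2 was found in 20 members and 1 member. The monocyte list came to 5854 CPM in Tc1 members and 4704 in Tc1 T cells, and to 2515 in Tc9 members and 924 in Tc9 T cells. Of the chemokine genes 7 of 10 were lower in Tc9 members and none higher (median -2.45), among them Ccl6 at 84.7 against 1186 CPM; in T cells all 14 measured were lower. Of the measured glycolysis genes 8 of 17 were lower in Tc9 members, 16 of 17 in macrophages and 14 of 16 in T cells.

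**Figure D4:**
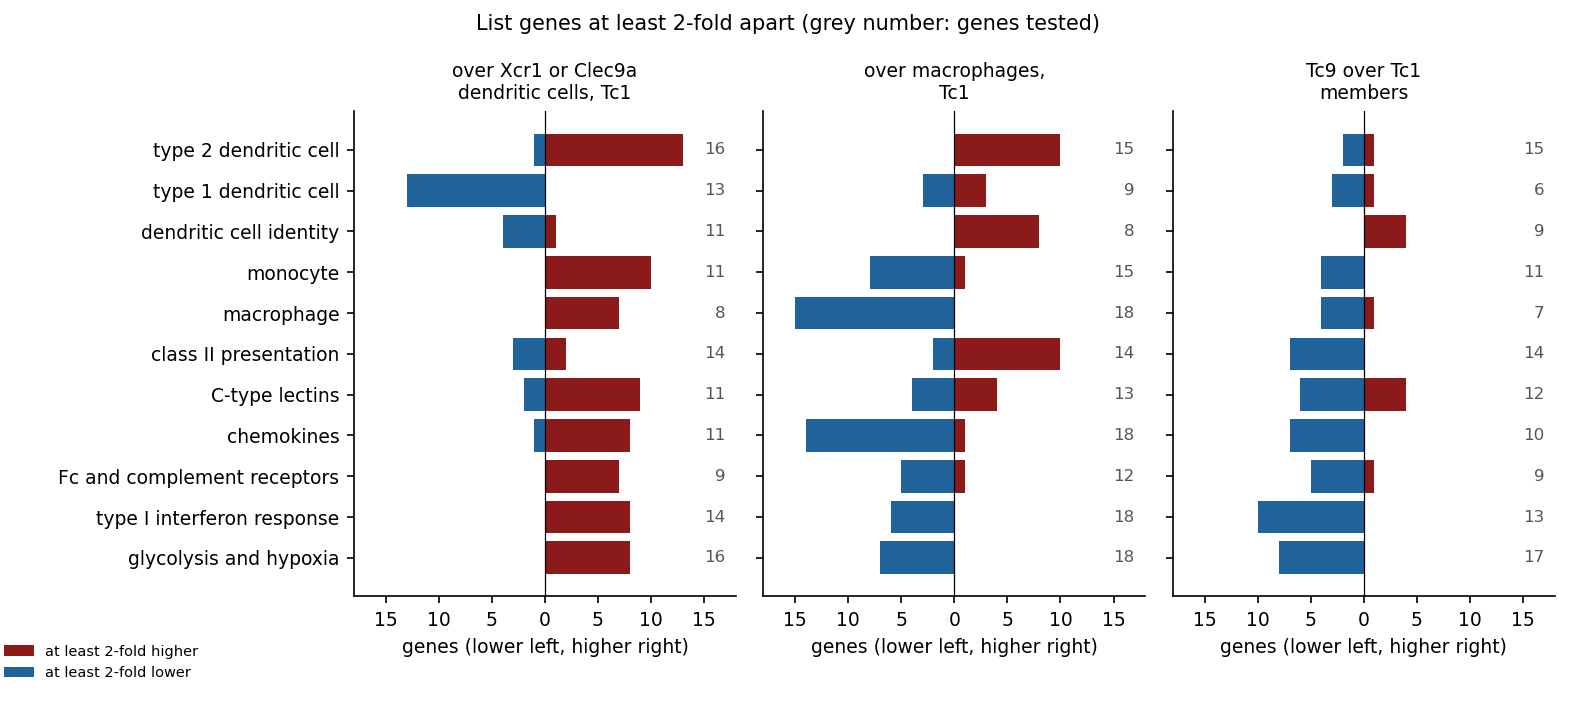
Number of measured genes per list that were at least 2-fold higher (right) or lower (left) in members, for 11 lists and 3 comparisons; grey numbers give how many were measured. Identity genes are all higher against macrophages and type 1 genes all lower against Xcr1 or Clec9a cells. Both directions were largely fixed by the choice of cells and the CPM minimum.

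Detection of Mgl2 and of Ly6c2 varied among the members. In Tc1, 21 of 43 members (48.8%, 33.3 to 64.5%) had Mgl2 without Ly6c2, 12 (27.9%, 15.3 to 43.7%) had Ly6c2 without Mgl2, 8 had both and 2 neither. In Tc9 these were 10, 1, 0 and 3 of 14. Across the 43 Tc1 members Spearman's rho between the CPM of the 2 genes was -0.62, and between Lyz2 and H2-Ab1 it was -0.52. Cells are no replicates, and both genes share each cell's total and the library's free RNA, so these are descriptions without a test. Ly6c2 was also found in 52.2% of the Tc1 T cells at full depth. T cells are known to carry it themselves, so that share cannot show whether its detection marks a kind of member. Per Tc1 member it ran from 0 through a median of 0 to 86 UMIs.

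**Figure D5:**
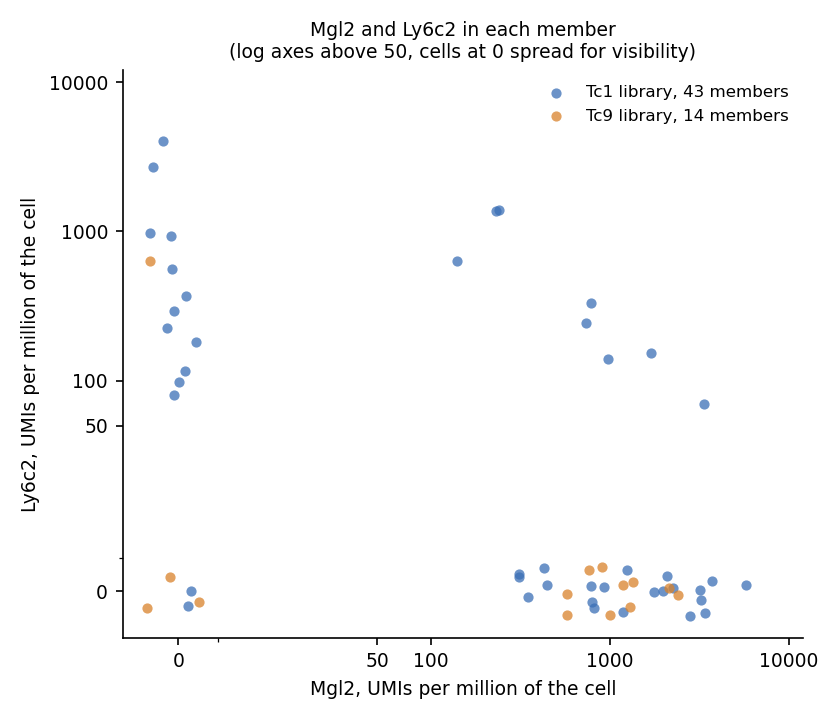
Mgl2 (x axis) against Ly6c2 (y axis) in CPM for each member, on symmetric log axes that start at 0 (blue, Tc1; orange, Tc9). Most cells lie along 1 of the 2 axes: 21 Tc1 cells have Mgl2 alone, 12 have Ly6c2 alone and 8 have both.

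Detection of dendritic and monocyte genes in the same member depended on depth. With Flt3, Zbtb46, Kmo and Dpp4 as 4 dendritic genes and Ly6c2, Fcgr1 and Cd14 as 3 monocyte genes, 28 of 43 Tc1 members had both kinds at full depth (65.1%, 49.1 to 79.0%), 12 had monocyte genes only, 2 dendritic only and 1 neither. In Tc9 these were 4, 2, 6 and 2 of 14. At 2000 UMIs, 6 of 43 Tc1 members had both kinds (14.0%, 5.30 to 27.9%), 16 monocyte genes only, 9 dendritic only and 12 neither, and in Tc9 these were 3, 1, 4 and 4 of 12. Across the 43 Tc1 members Spearman's rho between the summed CPM of the 4 dendritic and the 3 monocyte genes was -0.31, a description over cells of 1 library. The shares of Ly6c2 (20.9%) and Fcgr1 (9.30%) in thinned Tc1 members did not exceed those of Tc1 T cells (40.1% and 10.8%), whereas Lyz2 (67.4% against 40.3%) and Cd14 (27.9% against 13.1%) stood above them. T cells are themselves known to carry Ly6c2, so they are no blank for that gene. The Tc9 to Tc1 ratio of Ly6c2 in members was -2.74, and -2.65 after subtraction of expected free RNA. Of the receptor genes, Ccr2, the receptor for monocyte chemokines, was found in 58.1% of thinned Tc1 members against 22.1% of T cells, and in 7 of 12 Tc9 members against 28.9%.

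Costimulatory and cytokine genes were found in part of the members. Cd86, a ligand of CD28, was found in 32 of 43 Tc1 and 8 of 14 Tc9 members (256 and 449 CPM, with 67.9% of the Tc9 UMIs in 1 cell). Il1b, encoding interleukin-1 beta, stood at 760 CPM in 24 Tc1 members and 246 in 6 Tc9 members, against 301 and 2.61 in the T cells. Several genes rested on 1 cell: 95.9% of Cxcl3, 84.6% of Arg1 and 61.7% of Cd14 UMIs of Tc1 members came from the same cell. That cell lay at the edge of the rule, with 3 UMIs of Cd209a and 5 of H2-Ab1. It had no UMI of the dendritic and type 2 markers Mgl2, Clec10a, Flt3 and Zbtb46. Il12b, Il10 and Cxcl9 had no UMI in any member, which by the floor of 3 counts allows up to 6.46 CPM in Tc1 and 25.4 CPM in Tc9. Ccl22 stood at 17.2 CPM in Tc1 members and 13.2 in the T cells, against 1042 in the Ccr7 dendritic cells.

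Receptors for growth factors and type 2 signals were present at moderate levels. Csf2rb, the common beta chain for GM-CSF, interleukin-3 and interleukin-5, was found in 37 of 43 Tc1 members (323 CPM) and in 9 of 14 Tc9 members (186 CPM), and stood 1.51 above the Xcr1 or Clec9a cells and 1.63 above the Tc1 macrophages. Il4ra, the receptor chain for interleukin-4 and interleukin-13, was found in 27 of 43 and 4 of 14 members, at 116 and 50.8 CPM, against 118 CPM in Tc1 and 531 in Tc9 macrophages. Of 14 measured genes for sensing or response to type 2 signals, 5 were higher and 4 lower than in Tc1 macrophages, and in Tc9 2 of 14 were higher and 8 lower. Between members of Tc9 and Tc1, 3 of 13 were higher and 3 lower, so no direction stood out.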

How the data were processed

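Cell Ranger 7.0.0 with mm10 (GRCm38) is named in the submitters' processing notes. The authors deposited filtered matrices of UMI counts per gene and barcode, and TCR contigs per barcode. The Tc1 library held 13406 barcodes and 106053410 UMIs and the Tc9 library 8449 and 50713493; 148 barcodes occur in both, among them that of 1 Tc1 member. Counts as deposited were gated as described, summed per population and divided by the population's UMIs (CPM). Besides members these were Xcr1 or Clec9a cells (sum of at least 2, no Cd209a, otherwise the members' limits), macrophages (complement sum of at least 5, Cd3 sum of at most 1, no Xcr1 or Clec9a), Ccr7 cells (at least 2 UMIs) and T cells (Cd3 sum of at least 3).

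Ratios have exact conditional Poisson intervals and shares exact Clopper-Pearson intervals (scipy 1.17.1, Python 3.11.15). A gene at 0 entered at a floor of 3 counts over the pooled cells, also in list medians. TCR and immunoglobulin segments and mitochondrial genes were left out. For detection each cell was thinned to 2000 UMIs, which left out 2 Tc9 members. TMM factors came from edgeR 4.0.16. Scrublet (expected rate 0.06) called 1616 barcodes in Tc1 and 1 in Tc9, where it did not work. No member was among the highest scores and nothing was removed. The ratio script was tested on simulated data with known changes.

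Named genes were the 12 highest and 12 lowest ratios against each other population and the 10 highest and 10 lowest between libraries (100 CPM or more). Each list gave up to 4 more with the largest ratios from 20 CPM upwards, and 35 genes were named whatever their values. Batf3, Plet1, Il1r2, S100a4, Tnip3, Naaa, Cd74 and Ifitm1 were named after seeing their values. The members and the 34 gene lists were chosen with earlier results of these data known. After the values were seen, 1 gene that is not reported here was taken out of the lists, and list values were computed without it. Alternatives covered the gate, filters, scaling, cell weighting, free RNA, thinning and the CPM minimum. Leaving out each gene's top cell and thinning before the gate were added after seeing the data. Gene positions are from the RefSeq table for GRCm38.p6.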

Additional observations from a re-analysis of the deposited data

Results flagged for a closer look

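For 7 genes of the lists, members and macrophages were at least 2-fold apart in opposite directions in the 2 libraries, and the difference between the libraries was not tested. With macrophages as the base, the chemokine gene Ccl4 had a log2 ratio of 2.71 in Tc9 (30 UMIs in 4 members, none in macrophages, entered at the floor) and -1.05 in Tc1. Cd14, a co-receptor for bacterial lipid, had 1.47 in Tc9 (17 UMIs in 5 members, 9 of them in 1 cell) and -1.05 in Tc1. In Tc1, 61.7% of the members' Cd14 UMIs came from 1 cell. Cish, a feedback inhibitor of cytokine signals, had -1.20 in Tc9 (6 UMIs in members) and 2.14 in Tc1. The glycolytic gene Gapdh had 2.06 in Tc9 and was just over 2-fold lower than in macrophages in Tc1. Irf7, a regulator of interferon genes, had 2.85 in Tc9 (0.06 to 8.27, 11 UMIs in 3 members against 1 UMI) and -1.17 in Tc1. The immediate early gene Junb had -1.47 in Tc9 and 1.02 in Tc1. Vegfa, a growth factor for vessels, had 2.71 in Tc9 (-0.11 to 8.15, 10 UMIs in 4 members against 1 UMI) and -1.86 in Tc1. Of 2659 genes measured in both libraries, 282 were called in the same direction and 25 in opposite ones.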

How the results depend on the processing

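No paired analysis was possible because each group had 1 RNA library. Of 395 gene ratios, 12 changed direction under an alternative, and the cause was not tested unless given. The share of members, Tc1, was 0.503% with at least 1 Cd209a UMI and 0.571% over barcodes without a TCR. The share of members, Tc9, was 0.351% over barcodes without a TCR and 0.0779% when cells were thinned before the gate. Against Xcr1 or Clec9a cells, 1109 genes were higher and 871 lower without a CPM minimum, 132 and 96 at 200 CPM, 331 higher with a looser gate for those cells and 283 lower without each gene's top cell. Against macrophages, 546 were higher with cells weighted equally, 3269 higher and 1336 lower without a CPM minimum, and 97 and 93 at 200 CPM. Between libraries, 994 were lower in Tc9 without a CPM minimum, 110 higher and 108 lower at 200 CPM, and 280 higher and 705 lower without the top cell. A minimum changes the number of genes tested. With the looser gate the ratios to Xcr1 or Clec9a cells were -0.66 for Arg1, -0.065 for Cebpb, -0.54 for Clec4e, -0.74 for Ly6c2 and -0.047 for Lyz2. Without the top cell, Ccl22 and Cxcl3 had -0.18 there (Ccl22 also -0.15 with a complement sum of 0), and between libraries Cxcl3 had 1.56, Gbp2 and Nod2 0.10 and Tlr13 0.39 (0.082 after subtraction of free RNA). Rsad2 against macrophages had 0.72 with at least 1 Cd209a UMI. With 14 Tc9 members, ratios on few UMIs have wide intervals, and 23 Xcr1 or Clec9a cells limit the first comparison. The 34 Tc9 macrophages limit every comparison that uses them.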
